A study of Homo sapiens with 16 samples.

Results

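The integrated stress response transcription regulators described here are 10 genes, ATF4, DDIT3, ATF3, ATF5, CEBPB, CEBPG, TRIB3, NUPR1, PPP1R15A and EIF2AK4, chosen by symbol from the 60676 genes of the count tables. Each symbol matched 1 Ensembl identifier, and all 10 passed the filter on low counts that left 21569 genes for testing. RNA was sequenced from the human melanoma cell lines A101D, which the labels call methionine dependent, and MeWo, which they call methionine independent, meaning that homocysteine, the precursor that cells methylate to methionine, can stand in for methionine. Each line has 8 libraries, numbered as replicates 1 to 8. Cells grew in medium with dialyzed serum and 150 µM cystine, to which either 200 µM methionine or, in methionine-free medium, 200 µM homocysteine was added. No label says which library had which medium, so none is assigned here, and the libraries are taken as 4 numbered sets of 4: A101D replicates 1 to 4, A101D replicates 5 to 8, MeWo replicates 1 to 4 and MeWo replicates 5 to 8. What separates the sets, a treatment, a batch or both, is not stated and cannot be told apart. The labels also do not say whether replicates are separate cultures, so the p-values measure only the spread between these libraries, which may be technical. With 1 line of each kind, a difference between the lines cannot be tied to methionine dependence.

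In the integrated stress response, kinases that sense amino acid shortage, misfolded protein, viral RNA or haem deficiency phosphorylate the translation factor eIF2. Most translation then slows, while a few mRNAs with upstream reading frames, ATF4 among them, are translated more. The ATF4 protein binds DNA together with C/EBP partners and turns on genes for amino acid synthesis, uptake and tRNA charging, along with regulators that extend or end the response. EIF2AK4 (GCN2) is the kinase that senses uncharged tRNA. CEBPG and CEBPB are partners of ATF4. DDIT3 (CHOP), ATF3 and ATF5 are further leucine zipper transcription factors of the pathway. TRIB3 is a pseudokinase that binds ATF4 and DDIT3, NUPR1 is a small stress-induced nuclear protein, and PPP1R15A (GADD34) directs protein phosphatase 1 to eIF2 and so ends the block on translation. Much of this control acts on translation and protein, which RNA levels do not show.

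The 16 libraries held 28910881 to 38961862 counts. Levels are given in CPM, counts per 1e6 on library sizes scaled by trimmed mean of M-values factors, with the SD over 4 libraries, and differences as log2 fold changes with their standard error (SE). Libraries of a set were alike and sets differed: the chi-square per degree of freedom over genes was 2.32 to 6.69 for A101D pairs within a set and 77.7 to 114 for pairs across sets, against 1.86 to 7.20 and 8.60 to 13.8 in MeWo. Every pair differed by more than sampling noise, which does not show that the libraries are separate cultures. Each library was counted as a sample of its own. The libraries of A101D replicates 5 to 8 stood apart in other measures too, with 34020 to 34607 genes detected against 31281 to 33107 in replicates 1 to 4, and with 1.93% to 2.33% of counts from mitochondrial genes against 1.71% to 1.92%. MeWo replicate 2 had more genes detected (34471) than any other MeWo library. All 12 listed pigment cell and melanoma markers were detected in both lines. Their summed level was 4247 to 4950 CPM and 3697 to 3971 CPM in the lower and higher numbered A101D sets, and 10875 to 12638 CPM and 11735 to 12392 CPM in the MeWo sets. TYR and TYRP1, which make pigment, were near absent in A101D (means of 0.402 to 1.62 CPM). The list was mixed between the lines. PMEL had set means of 209 and 235 CPM in A101D and 6618 and 6669 CPM in MeWo. DCT had 1692 and 1311 CPM in A101D and 490 and 518 CPM in MeWo, and S100B and ERBB3 were higher in A101D too. All 4 endothelial markers had higher means in A101D replicates 5 to 8 (sum of the list 25.1 to 31.8 CPM against 6.14 to 7.32 CPM). VWF went from 3.80 to 15.6 CPM, TEK from 2.38 to 11.7 CPM and CDH5 from 0.386 to 1.07 CPM. PECAM1 stayed below 1 CPM in every set. The fibroblast list summed to 2.47 to 2.72 CPM in A101D replicates 1 to 4, 3.66 to 4.83 CPM in replicates 5 to 8 and 71.5 to 82.9 CPM over the MeWo libraries. Most of the MeWo sum was LUM (means of 72.9 and 74.9 CPM). DCN had 3.92 and 4.43 CPM in the MeWo sets, and PDGFRA and COL3A1 stayed below 1 CPM there. The keratinocyte list went from 0.604 to 0.946 CPM in the lower numbered A101D set to 1.81 to 2.46 CPM in the higher numbered one, with KRT1 at 0 in both, and the immune list from 2.72 to 2.93 CPM to 3.25 to 3.49 CPM. The sums of all 5 marker lists thus moved with the A101D sets without overlap. In the pigment cell and melanoma list the sum was lower in replicates 5 to 8, while the means of PMEL, ERBB3, TYR and TYRP1 were higher. The part of these lists in the results below was not tested.

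Promoter sequences are shown for the members that carry an exact copy of a DNA element the pathway's factors are known to bind, because several members' levels moved together across the libraries. RefSeq promoter windows (GRCh38.p14, 250 bases before to 50 after each start) were on hand for 9 of the 10 members, in 18 windows, and were searched on both strands for TGATGNAA, the C/EBP-ATF response element bound by ATF4 with a C/EBP partner, and for TGACGTCA, the cyclic AMP response element, which reads the same on both strands. The motifs do not share letters with each other in these windows. The capitals mark the motif. The CEBPG stretch is chr19:33373963-33374112 (plus strand, motif starting 42 bases before a RefSeq start). It lies inside the annotated CEBPG gene, which begins at 33373330, though no exon of a coding transcript covers its motif. The ATF3 stretch is chr1:212565157-212565306 (plus strand, 191 bases before one of its starts). The PPP1R15A stretch is chr19:48872271-48872391 (plus strand, 58 bases before the start).
CEBPG: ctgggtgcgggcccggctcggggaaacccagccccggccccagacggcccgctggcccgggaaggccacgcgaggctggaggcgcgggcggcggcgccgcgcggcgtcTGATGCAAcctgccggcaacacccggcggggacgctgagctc
ATF3: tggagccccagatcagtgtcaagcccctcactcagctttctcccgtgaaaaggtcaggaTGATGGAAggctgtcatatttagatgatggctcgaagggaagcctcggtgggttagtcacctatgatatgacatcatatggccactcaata
PPP1R15A: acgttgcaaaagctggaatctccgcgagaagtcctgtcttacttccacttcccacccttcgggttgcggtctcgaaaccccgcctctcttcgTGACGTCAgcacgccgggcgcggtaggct
TGATGNAA was thus found for 2 of 9 members and TGACGTCA for 1. Of all 27305 genes with a window, 4.46% held the first motif and 2.25% the second, and of all 35116 windows 3.62% and 1.85%. The match is a description of the letters and not of binding, and the other members lack these letters in these windows only.

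The first comparison asked how the regulators differed between replicates 5 to 8 and replicates 1 to 4 of A101D. Of the 10 members, 8 were higher in replicates 5 to 8, EIF2AK4 was lower and ATF5 did not pass the test (limma-voom, adjusted p threshold 0.05). Over all 21569 genes tested 65.3% passed, 29.6% higher and 35.8% lower. The 8 higher members did not overlap between the sets, as was the case for 27.0% of all genes in that direction (32.9% in the other, to which EIF2AK4 belongs). The members' median log2 fold change was 1.65, against -0.05 over all genes. In bulk RNA, fewer cells with a high level and less RNA per cell cannot be told apart. In MeWo the corresponding comparison called 7 members higher and EIF2AK4 lower, while ATF3 and ATF5 did not pass. There 13.1% of all genes passed, 4.59% higher and 8.51% lower, and the members' median was 0.42 against -0.02. Each member had the same sign in both lines, except that ATF5 turned positive in A101D with total-count or median-of-ratios scaling, and the difference between the lines in these changes, tested as an interaction, passed for 9 of them, where 48.5% of all genes passed. It was smaller in MeWo for 8 members that were higher in A101D (interaction called lower for 20.8% of all genes) and less negative for EIF2AK4 (called higher for 27.6% of all genes). The comparison in A101D and that in MeWo share no libraries. The interaction is computed from all 4 sets.

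**Figure D1:**
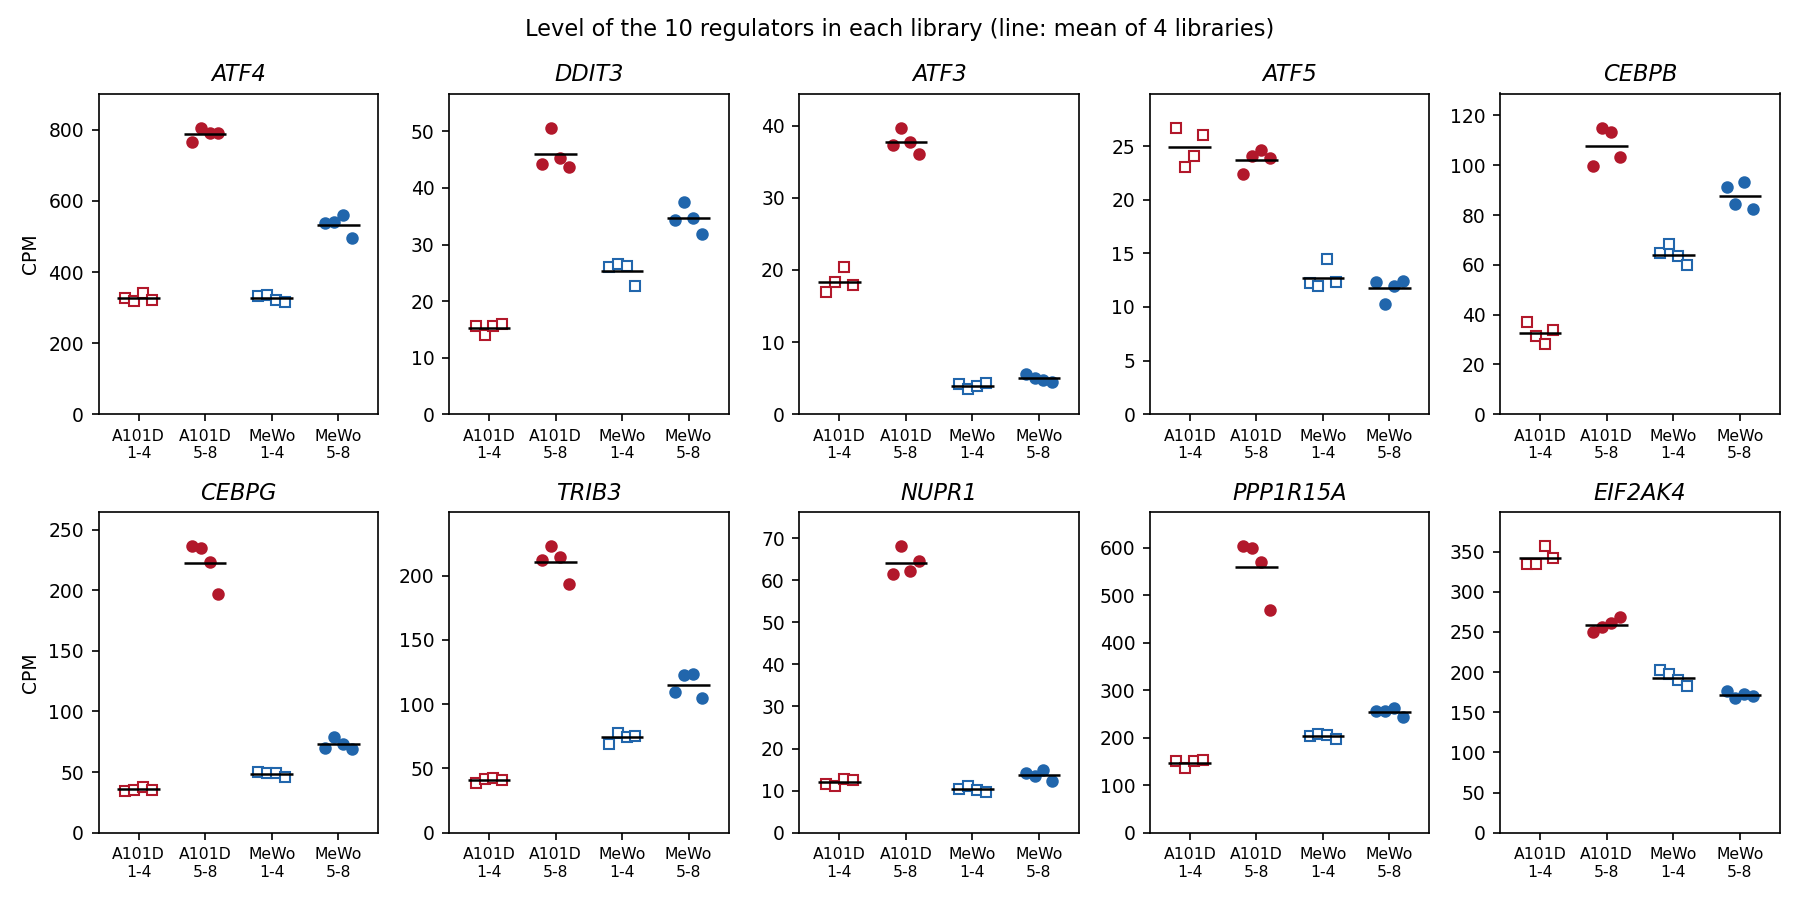
Level of each regulator in CPM (vertical axes, starting at 0) in every library, with open squares for replicates 1 to 4, filled circles for replicates 5 to 8, red for A101D, blue for MeWo and a line at the mean of 4 libraries. In A101D 8 genes lie far higher in replicates 5 to 8 (CEBPG 223 against 35.7 CPM), the step in MeWo is smaller (72.9 against 48.6 CPM), ATF5 overlaps between the sets of each line and EIF2AK4 is lower in replicates 5 to 8.

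EIF2AK4 (ENSG00000128829, chromosome 15, 39934146 to 40035591, GRCh38), the kinase at the head of the amino acid branch, was the only member called lower in replicates 5 to 8. Its levels were 334, 335, 357 and 342 CPM in A101D replicates 1 to 4 and 250.3, 256, 261 and 268 CPM in replicates 5 to 8. All higher numbered libraries lay below all lower numbered ones, a log2 fold change of -0.40 ± 0.04 (adjusted p 2.33e-13). MeWo libraries held 202, 198, 190.0 and 182 CPM in replicates 1 to 4 and 177, 168, 173 and 170.3 CPM in replicates 5 to 8. These sets did not overlap either, though the gap was narrow (8.11% of all genes had a like gap in that direction, log2 fold change -0.17 ± 0.04, adjusted p 0.00176). The change in MeWo was smaller in size by 0.23 ± 0.05 on the log2 scale (adjusted p 0.000199).

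ATF4 (ENSG00000128272, chromosome 22, 39519695 to 39522685), the transcription factor that the pathway converges on, stood at like levels in the lower numbered sets of both lines under the scaling used, while upper-quartile scaling put MeWo higher by 0.50 on the log2 scale (adjusted p 3.11e-14). A101D replicates 1 to 4 held 326, 319.7, 340.0 and 322 CPM, and MeWo replicates 1 to 4 held 332, 336, 320.5 and 316 CPM. The sets of the lines overlapped, with means of 327 ± 9.14 and 326 ± 9.64 CPM (SD, n = 4). In replicates 5 to 8 the levels were 766, 805, 792 and 792 CPM in A101D and 537, 540.2, 559 and 497 CPM in MeWo. Within each line every library of the higher numbered set lay above every library of the lower numbered one. The increase was 2.41-fold in A101D (log2 fold change 1.27 ± 0.03, adjusted p 5.02e-31) and 1.63-fold in MeWo (0.71 ± 0.04, adjusted p 5.47e-19), smaller in MeWo by 0.56 ± 0.05 (adjusted p 4.92e-13). Of the 10 members ATF4 had the largest log2 fold change in MeWo, while in A101D only ATF3 among the 8 higher members had a smaller one.

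CEBPG (ENSG00000153879, chromosome 19, 33373330 to 33382686), a C/EBP protein without an activation domain that pairs with ATF4, had the largest difference of the members in A101D, and its promoter stretch is shown above. Its levels were 34.7, 35.3, 37.5 and 35.3 CPM in A101D replicates 1 to 4 and 236, 235, 223 and 197 CPM in replicates 5 to 8. This was a 6.23-fold increase (log2 fold change 2.64 ± 0.05, adjusted p 8.69e-35), with replicate 8 the lowest of its set. MeWo held 50.4, 48.9, 49.4 and 45.7 CPM in replicates 1 to 4 and 70.0, 79.0, 73.3 and 69.3 CPM in replicates 5 to 8. That 1.5-fold increase (0.58 ± 0.05, adjusted p 2.19e-10) was smaller than the one in A101D by a factor of 4.16 (difference -2.06 ± 0.07, adjusted p 2.62e-25), the largest difference between the lines among the members.

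CEBPB (ENSG00000172216, chromosome 20, 50190734 to 50192689), an activating C/EBP factor of amino acid and inflammatory responses, was higher in the same sets. A101D held 36.9, 31.4, 28.2 and 33.7 CPM in replicates 1 to 4 and 99.9, 115, 113 and 103 CPM in replicates 5 to 8. The sets were clearly apart (log2 fold change 1.73 ± 0.06, adjusted p 7.24e-22). In MeWo the levels were 64.6, 68.4, 63.5 and 59.9 CPM in replicates 1 to 4 and 91.2, 84.3, 93.2 and 82.5 CPM in replicates 5 to 8 (0.45 ± 0.06, adjusted p 1.54e-06). The lower numbered A101D libraries were thus the lowest of all 16, and the difference between the lines was -1.27 ± 0.08 (adjusted p 2.50e-14). An antisense gene, CEBPB-AS1, covers 11.8% of the CEBPB exon bases on the other strand. CEBPB-AS1 had means of 1.10 and 3.38 CPM in the lower and higher numbered A101D sets, and 0.996 and 1.23 CPM in those of MeWo. The strand setting of the counting is not known, so reads of such pairs cannot be told apart.

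DDIT3 (ENSG00000175197, chromosome 12, 57516588 to 57521737), the CHOP factor that ATF4 induces and that is linked to cell death under lasting stress, had a profile close to that of CEBPB. A101D replicates 1 to 4 held 15.7, 14, 15.6 and 15.9 CPM and replicates 5 to 8 held 44.2, 50.6, 45.2 and 43.7 CPM. The sets lay far apart (log2 fold change 1.58 ± 0.06, adjusted p 5.03e-25). MeWo replicates 1 to 4 held 26.1, 26.6, 26.2 and 22.6 CPM and replicates 5 to 8 held 34.3, 37.6, 34.7 and 31.9 CPM. This was 1.37-fold (0.45 ± 0.06, adjusted p 4.34e-07), smaller than in A101D by 1.13 ± 0.09 on the log2 scale (adjusted p 5.16e-15). Exons of MARS1, the methionyl-tRNA synthetase gene on the opposite strand, cover 27.2% of the DDIT3 exon bases, and those of MBD6 a further 4.44%. MARS1 had 413 and 617 CPM in the lower and higher numbered A101D sets, and 275 and 313 CPM in those of MeWo, far more than DDIT3, and its part in the DDIT3 values was not tested.

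ATF3 (ENSG00000162772, chromosome 1, 212565334 to 212620777), an immediate stress-response factor that represses or activates its targets with other leucine zipper proteins, was the member with the largest gap between the lines. Levels were 17.0, 18.3, 20.4 and 17.9 CPM in A101D replicates 1 to 4 and 37.3, 39.7, 37.7 and 36.1 CPM in replicates 5 to 8, a 2.06-fold difference (log2 fold change 1.05 ± 0.06, adjusted p 8.23e-21). MeWo had only 4.16, 3.50, 3.97 and 4.32 CPM in replicates 1 to 4 and 5.51, 5.04, 4.80 and 4.48 CPM in replicates 5 to 8. The MeWo sets did not overlap, as was the case for 6.20% of all genes in that direction, but the log2 fold change of 0.30 ± 0.11 did not pass (adjusted p 0.0597). It passed under 6 of the alternatives, the log2 CPM version of limma and the fit without MeWo replicate 4 (adjusted p 0.00610 and 0.0411) among them. At 108 to 182 counts per MeWo library, ATF3 was measured less precisely there than the other members. The difference between the lines was -0.74 ± 0.12 (adjusted p 1.80e-06).

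ATF5 (ENSG00000169136, chromosome 19, 49928702 to 49933935), which like ATF4 is controlled through upstream reading frames in its mRNA and takes part in the mitochondrial stress response, was the one member that did not pass in either line. Levels were 26.7, 23.0, 24.0 and 26.0 CPM in A101D replicates 1 to 4 and 22.4, 24.0, 24.6 and 23.9 CPM in replicates 5 to 8. The log2 fold change of -0.07 ± 0.06 had a 95% interval from -0.19 to 0.04 (adjusted p 0.275). In MeWo the libraries held 12.2, 11.9, 14.4 and 12.3 CPM and 12.4, 10.3, 12 and 12.4 CPM, again overlapping (log2 fold change -0.12 ± 0.07, 95% interval -0.27 to 0.04, adjusted p 0.359). The intervals exclude a rise of the size seen in any of the 8 higher A101D members. The sign of the A101D value depended on the scaling. Its exons share 21.2% of their bases with NUP62 and 2.54% with IL4I1 on the other strand. NUP62 had 85.1 to 106 CPM over the 4 set means, more than ATF5 in each set, so the counts of ATF5 are uncertain.

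TRIB3 (ENSG00000101255, chromosome 20, 362835 to 397559), which the response induces and which dampens ATF4 and DDIT3 activity, was 5.15-fold higher in A101D replicates 5 to 8. Its levels were 38.5, 41.8, 42.3 and 41.1 CPM in replicates 1 to 4 and 212, 223, 214 and 193 CPM in replicates 5 to 8 (log2 fold change 2.36 ± 0.05, adjusted p 3.95e-32). MeWo held 68.9, 77.7, 74.8 and 75.2 CPM against 109.7, 123, 123 and 105 CPM (0.63 ± 0.05, adjusted p 1.79e-11). The MeWo sets lay between the A101D sets in level, without overlap. Between the lines the changes differed by -1.73 ± 0.07 (adjusted p 1.95e-22).

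NUPR1 (ENSG00000176046, chromosome 16, 28532708 to 28539174), a stress-induced chromatin protein, differed little between the lines in replicates 1 to 4. There MeWo against A101D had a log2 fold change of -0.20 ± 0.08 (adjusted p 0.0157), with overlapping libraries. The gap was far wider in replicates 5 to 8. The lower numbered libraries held 11.5, 11.1, 12.8 and 12.4 CPM in A101D and 10.4, 11.2, 10.2 and 9.72 CPM in MeWo. The higher numbered ones held 61.5, 68.0, 62.2 and 64.5 CPM in A101D and 14.1, 13.4, 14.9 and 12.4 CPM in MeWo. This was 5.38-fold in A101D (log2 fold change 2.43 ± 0.06, adjusted p 1.99e-32) and 1.32-fold in MeWo (0.40 ± 0.07, adjusted p 0.000168), with non-overlapping sets in both. The difference of -2.03 ± 0.09 between the lines (adjusted p 3.90e-22) was close to that of CEBPG.

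PPP1R15A (ENSG00000087074, chromosome 19, 48872392 to 48876057), the phosphatase subunit that reverses eIF2 phosphorylation, held 151, 136, 151 and 153 CPM in A101D replicates 1 to 4 and 603, 599, 571 and 469 CPM in replicates 5 to 8. Replicate 8 was lower than the others of its set but still far above replicates 1 to 4 (log2 fold change 1.92 ± 0.06, adjusted p 1.10e-17). MeWo held 203, 208, 206 and 198 CPM in replicates 1 to 4 and 255, 256, 263 and 243 CPM in replicates 5 to 8. That 1.25-fold difference passed (0.32 ± 0.06, adjusted p 0.00134), except in the fit without the filter on low counts, where its adjusted p was 0.223. The lines differed by -1.60 ± 0.09 (adjusted p 6.16e-13). PPP1R15B, the constitutive counterpart of this subunit and not a member, chosen for mention after its value was seen, was lower in A101D replicates 5 to 8 (-0.16 ± 0.04, adjusted p 0.000291).

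**Figure D2:**
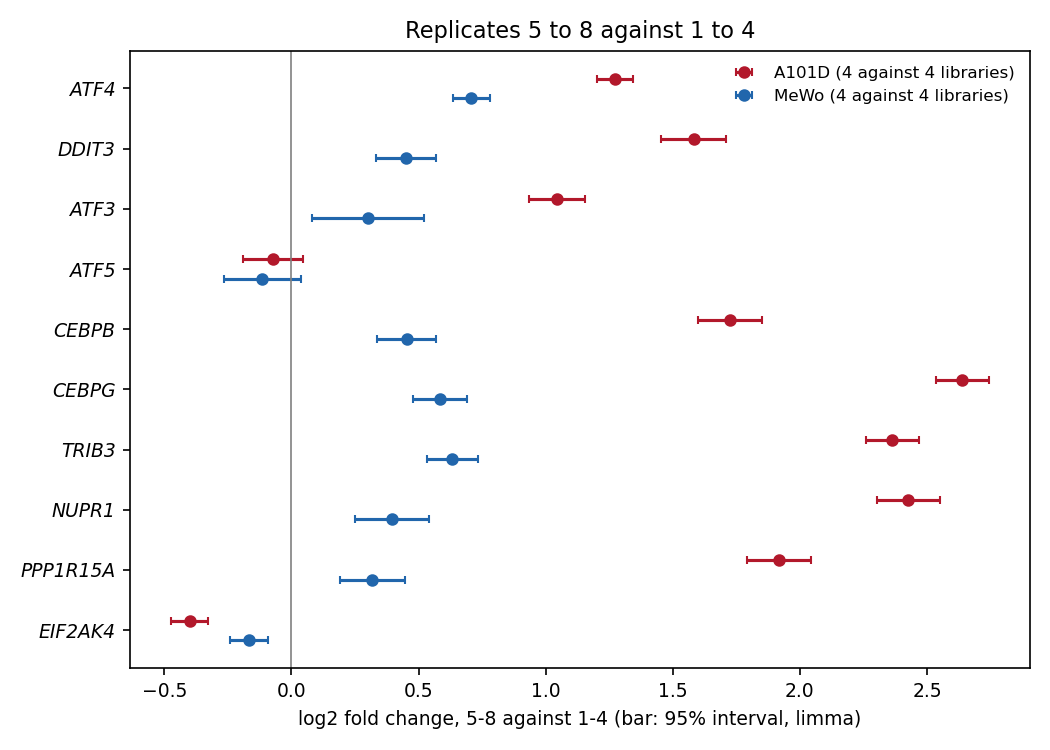
Log2 fold change of replicates 5 to 8 against 1 to 4 (horizontal axis) for each regulator in A101D (red) and MeWo (blue), with 95% intervals from limma, 4 against 4 libraries in each line. The 8 higher members lie at 1.05 to 2.64 in A101D and at 0.30 to 0.71 in MeWo, ATF5 spans 0 in both lines and EIF2AK4 lies at -0.40 and -0.17.

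Within a set, some libraries were often the lowest. MeWo replicate 8 had the lowest level of its set for 8 of the 10 members and MeWo replicate 4 for 7, while A101D replicates 2, 5 and 8 were each lowest for 5. On total counts alone MeWo replicate 8 was still lowest for 7 members and A101D replicate 2 for 6, but MeWo replicate 4 for 2. Leaving out any 1 library kept all 8 higher members called in A101D, all 7 in MeWo and 9 members called in the interaction.

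The second comparison asked how the lines differed within each numbered set. It shares its libraries with the first and is therefore no separate support for it. In replicates 1 to 4, MeWo was higher for DDIT3, CEBPB, CEBPG, TRIB3 and PPP1R15A, lower for ATF3, ATF5, NUPR1 and EIF2AK4, and did not pass for ATF4. Over all genes 79.1% passed, 35.8% higher and 43.3% lower in MeWo, and all called members but NUPR1 had non-overlapping libraries (32.2% of genes lay all above and 39.9% all below in MeWo). In replicates 5 to 8 all 10 members were lower in MeWo and none of the sets overlapped, where 84.1% of all genes passed, 40.5% higher and 43.5% lower, and 41.3% of genes had all MeWo libraries below all A101D libraries. Upper-quartile scaling moved the median of all genes up by 0.50 and 0.49 on the log2 scale in these comparisons, and with it ATF4 (0.50) and NUPR1 (0.30) came out higher in MeWo replicates 1 to 4 and DDIT3 (0.08) and CEBPB (0.19) higher in MeWo replicates 5 to 8. Relative to that shift these values were -0.00351 for ATF4, -0.20 for NUPR1, -0.41 for DDIT3 and -0.30 for CEBPB.

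Among the factors, ATF3 was 4.57-fold lower in MeWo in replicates 1 to 4 (log2 fold change -2.19 ± 0.09, adjusted p 1.05e-24) and 7.65-fold lower in replicates 5 to 8 (-2.93 ± 0.08, adjusted p 4.56e-32). ATF5 differed by a like amount in both sets (-0.98 ± 0.07 and -1.02 ± 0.07). For ATF4 the difference in replicates 1 to 4 was -0.00274 ± 0.04 with a 95% interval from -0.08 to 0.07 (adjusted p 0.947), and in replicates 5 to 8 it was -0.57 ± 0.03 (adjusted p 1.87e-19), a value that missed the threshold under upper-quartile scaling (-0.07, adjusted p 0.112). DDIT3 went from 0.72 ± 0.07 to -0.41 ± 0.05 and CEBPB from 0.97 ± 0.06 to -0.30 ± 0.05, both turning positive in replicates 5 to 8 under upper-quartile scaling alone of the 4 scalings. CEBPG went from 0.45 ± 0.06 to -1.61 ± 0.05.

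Of the feedback genes, TRIB3 was 1.81-fold higher in MeWo in replicates 1 to 4 (log2 fold change 0.86 ± 0.05) and 1.83-fold lower in replicates 5 to 8 (-0.87 ± 0.05). PPP1R15A likewise crossed, from 0.47 ± 0.06 to -1.13 ± 0.06. The small NUPR1 difference in replicates 1 to 4 (-0.20 ± 0.08, adjusted p 0.0157, overlapping libraries) was lost without A101D replicate 3 (adjusted p 0.0531), without MeWo replicate 4 (0.0563) and without the filter on low counts (0.0686), and turned to 0.30 under upper-quartile scaling. In replicates 5 to 8 NUPR1 was 4.70-fold lower in MeWo (-2.23 ± 0.06, adjusted p 3.93e-33). The kinase EIF2AK4 was lower in MeWo in both sets (-0.82 ± 0.04 and -0.59 ± 0.04), the second of these missing the threshold under upper-quartile scaling (-0.10, adjusted p 0.0511).

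**Figure D3:**
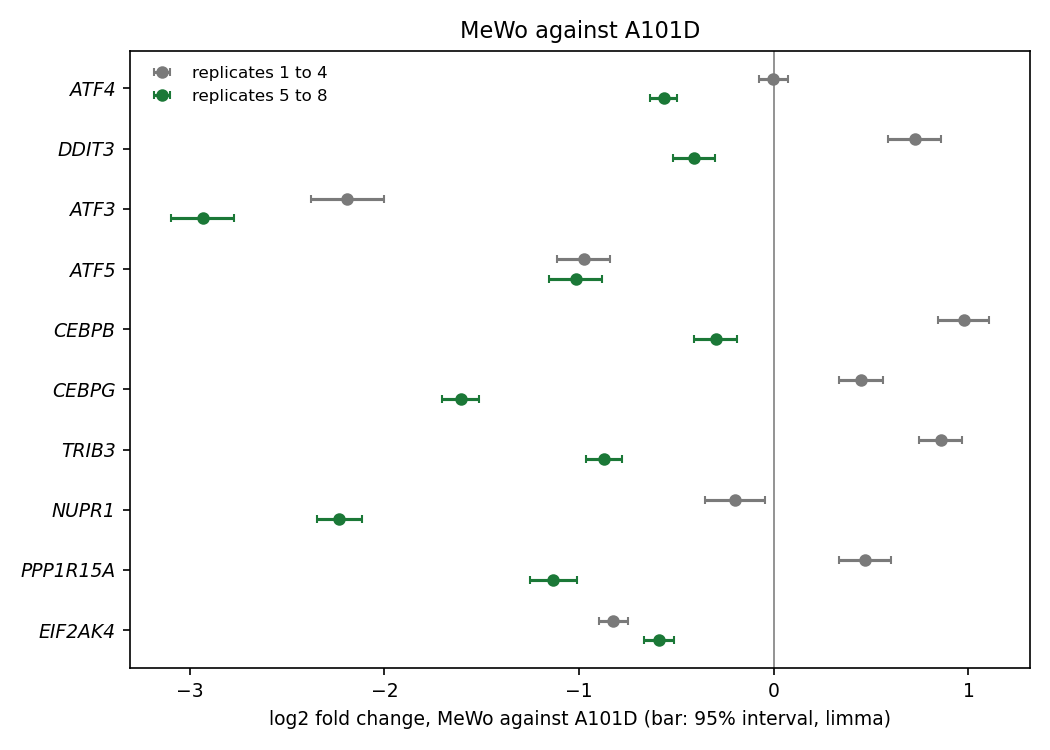
Log2 fold change of MeWo against A101D (horizontal axis) for each regulator within replicates 1 to 4 (grey) and replicates 5 to 8 (green), with 95% intervals from limma, 4 against 4 libraries. In replicates 1 to 4 the genes lie on both sides of 0 and ATF4 lies at 0, while in replicates 5 to 8 all 10 lie below 0 under the scaling used here (DDIT3 and CEBPB turn positive under upper-quartile scaling), from -0.30 for CEBPB to -2.93 for ATF3.

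Levels were set against each other per length, in CPM per kb of annotated exon. ATF4 was the highest member in each of the 4 sets (130.0, 314, 130 and 212 CPM per kb in the A101D and then the MeWo sets, lower numbers first), followed by PPP1R15A (47.7, 181, 65.9 and 82.2 CPM per kb). In A101D replicates 1 to 4 the order below these was EIF2AK4, CEBPB, TRIB3, DDIT3, ATF5, CEBPG, ATF3 and NUPR1, from 28.6 down to 2.11 CPM per kb, where TRIB3 and DDIT3, and ATF5 and CEBPG, overlapped over the libraries. In replicates 5 to 8 of A101D, TRIB3, CEBPB and CEBPG came next to PPP1R15A at 61.3, 55.2 and 50.5 CPM per kb, the neighbours overlapping, EIF2AK4 had dropped from the third to the seventh place (21.6 CPM per kb) and ATF5 was last (8.04 CPM per kb). In both MeWo sets CEBPB, TRIB3 and DDIT3 followed PPP1R15A, and ATF5, NUPR1 and ATF3 closed the order, ATF3 at 0.987 and 1.23 CPM per kb. This order depends on the exon length used, most for EIF2AK4 and ATF3, whose annotated exons cover 11957 and 4040 bases against 5499 and 2033 in their longest principal transcripts. With transcript lengths EIF2AK4 moved to the second place in A101D replicates 1 to 4 (62.2 CPM per kb, next to PPP1R15A at 62.0) and to the third in MeWo replicates 1 to 4 (35.1 CPM per kb, above CEBPB at 32.8). ATF3 then lay above CEBPG in A101D replicates 1 to 4 (9.05 against 8.69 CPM per kb), above NUPR1 in A101D replicates 5 to 8 (18.5 against 11.7) and level with NUPR1 in the MeWo sets (1.96 and 1.89, 2.44 and 2.50). NUPR1 is counted over 5674 exon bases.

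Profiles were compared as the root mean square difference of log2 CPM, each gene centred on its mean over the 16 libraries, which says how alike patterns are and nothing about their control. Among the 45 pairs of members, DDIT3 and CEBPB were closest (0.15), followed by ATF5 and EIF2AK4 (0.20) and TRIB3 and PPP1R15A (0.26), and ATF3 and CEBPB were farthest apart (1.42). Among 10124 other genes the ones most like ATF4 were ARHGEF2 (0.13), SMG1P7 (0.14), MID1IP1, ZNF641 and TNFAIP3 (0.17 to 0.18), where the median over all of them was 0.69. ARHGEF2, an activator of the GTPase RhoA, had means of 257 and 595 CPM in the A101D sets and 259 and 342 CPM in the MeWo sets. SMG1P7 is a pseudogene of a multicopy family, so its counts are uncertain. The genes most like DDIT3 were TIGD2 (0.15), AKNA (0.16), ITGA7, DDIT4 and TSC22D3 (0.18 to 0.19), against a median of 0.73. DDIT4, an inhibitor of mTORC1 that is also on the list of ATF4 targets, had 40.1 and 133 CPM in the A101D sets and 87.3 and 113 CPM in the MeWo sets.

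The pathway around the members was read from gene lists. Upstream, of 16 genes for the other eIF2 kinases, their regulators, eIF2, its exchange factor eIF2B and the second phosphatase subunit, 12 were lower and 2 higher in A101D replicates 5 to 8, and 5 were lower and 2 higher in MeWo. Over all genes 35.8% were lower and 29.6% higher in A101D, and 8.51% lower and 4.59% higher in MeWo. The list's median was -0.23 in A101D and -0.06 in MeWo, against -0.05 and -0.02 over all genes. EIF2S3, the gamma subunit of eIF2, fell by 0.62 ± 0.04 on the log2 scale in A101D (adjusted p 1.07e-18), from 657 ± 20.9 to 426 ± 25.8 CPM. The kinase genes EIF2AK3 (PERK) and EIF2AK2 (PKR) were lower in the same set by -0.59 ± 0.05 and -0.42 ± 0.04 and did not pass in MeWo, and the eIF2B subunit gene EIF2B3 was lower in both lines (-0.57 ± 0.05 and -0.17 ± 0.06, adjusted p 6.62e-13 and 0.0307). Of the proteins that act on EIF2AK4 directly, chosen for mention after their values were seen, its activator GCN1 was lower in both lines (-0.17 ± 0.03 and -0.19 ± 0.03), and IMPACT, which competes with it for GCN1, did not pass in A101D (-0.05 ± 0.05) and was higher in MeWo (0.34 ± 0.05, adjusted p 1.69e-06).

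Of 40 tested genes that ATF4 is known to induce, 37 were higher and 1 lower in A101D replicates 5 to 8 (median log2 fold change 0.86), and 17 were higher and 2 lower in MeWo (median 0.12), the rest not passing, where 29.6% and 4.59% of all genes were higher. The interaction was called lower for 35 and higher for 1, against 20.8% and 27.6% of all genes. These medians were 0.83 and 0.12 without FGF21, which has few counts. CHAC1, which degrades glutathione, had A101D set means of 19.9 ± 1.29 and 215 ± 18.7 CPM, a log2 fold change of 3.42 ± 0.08 (adjusted p 1.42e-20), and MeWo set means of 14.9 ± 0.649 and 38.9 ± 4.68 CPM, a change of 1.37 ± 0.09 (adjusted p 2.25e-09). ADM2, a secreted peptide of the calcitonin family, was 3.29 ± 0.08 higher in A101D (8.39 to 81.2 CPM) and did not pass in MeWo (1.75 and 2.31 CPM, adjusted p 0.169). SLC7A11, the cystine importer, went opposite ways. A101D rose from 64.7 ± 3.73 to 364 ± 19.3 CPM (2.49 ± 0.04, adjusted p 9.62e-38), while MeWo moved from 732 ± 11.9 to 673 ± 32.1 CPM (-0.12 ± 0.04, adjusted p 0.0192). ASNS, asparagine synthetase, was 2.12 ± 0.12 higher in A101D and 0.63 ± 0.09 higher in MeWo. FGF21, a secreted stress hormone, had 2 counts in all of A101D replicates 1 to 4 and 165 in replicates 5 to 8, a ratio of 73.7 (exact 95% interval 20.1 to 614, counting error only), and 0 and 2 counts in the MeWo sets.

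The same response element as in CEBPG and ATF3 was searched in the promoters of these targets. TGATGNAA was in a window of 12 of the 33 list genes that have one (43 windows), against 4.46% of all 27305 genes, and TGACGTCA in none, against 2.25%. The list holds known ATF4 targets, some of which may be known as such through this element. Its share in the list is therefore no separate support. The element in ASNS, the textbook target, and that in CHAC1, the target with the largest log2 fold change in MeWo, are shown for comparison with the CEBPG stretch above. The ASNS site is chr7:97872458-97872487 (GRCh38.p14, minus strand, 68 bases before a RefSeq start). The CHAC1 site is chr15:40953251-40953280 (plus strand, motif on the opposite strand, 209 bases before a RefSeq start). Both motifs, in capitals, lie in an exon of a coding transcript, unlike those of the CEBPG, ATF3 and PPP1R15A stretches.
ASNS: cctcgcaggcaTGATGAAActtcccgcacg
CHAC1: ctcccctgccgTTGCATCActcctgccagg

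The list of other factors was mixed. Of 19 tested leucine zipper and stress factors outside the 10, 7 were higher and 10 lower in A101D, and 1 higher and 3 lower in MeWo. The higher calls, 36.8% in A101D and 5.26% in MeWo, were near the background of 29.6% and 4.59% of all genes. The lower calls were 52.6% and 15.8%, against 35.8% and 8.51% of all genes. JDP2, a dimerization partner of JUN, was higher in both lines, with A101D set means of 5.06 ± 0.599 and 16 ± 1.06 CPM (log2 fold change 1.67 ± 0.09) and MeWo set means of 14.2 ± 1.17 and 18.5 ± 0.522 CPM (0.37 ± 0.06, adjusted p 7.37e-05). FOS was higher in A101D (0.75 ± 0.10), and JUND and CEBPZ were lower there (-0.68 ± 0.09 and -0.65 ± 0.04). FOS, JUND and CEBPZ did not pass in MeWo (-0.13, 0.04 and -0.07).

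Downstream of DDIT3, 5 of 8 tested CHOP and cell death targets were higher and 2 lower in A101D, and 3 higher and none lower in MeWo. Over all genes 29.6% were higher and 35.8% lower in A101D, and 4.59% and 8.51% in MeWo. The 2 lower in A101D were BCL2L11 (log2 fold change -0.44 ± 0.08, adjusted p 9.67e-06) and ERO1A (-0.22 ± 0.04, adjusted p 2.20e-05). PMAIP1 (NOXA), which promotes apoptosis, had A101D set means of 11.7 ± 1.58 and 60.1 ± 6.53 CPM (log2 fold change 2.37 ± 0.08, adjusted p 9.16e-22) and MeWo set means of 7.65 ± 0.546 and 10.5 ± 0.895 CPM (0.46 ± 0.11, adjusted p 0.00451). BBC3 (PUMA), of the same protein family, was higher by 0.74 ± 0.07 and 0.49 ± 0.09, and the difference between the lines did not pass (-0.25 ± 0.11, adjusted p 0.0525). TXNIP, an inhibitor of thioredoxin, was higher by 1.11 ± 0.05 in A101D and 0.19 ± 0.05 in MeWo, and the phosphatase gene DUSP5 passed in A101D alone (0.60 ± 0.07, against -0.17 ± 0.06 in MeWo, difference -0.77 ± 0.10, adjusted p 4.16e-09).

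Chaperone genes that the other arms of the unfolded protein response control through ATF6 and XBP1 were more often lower than higher, as were all genes. Of 18, 10 were lower and 5 higher in A101D replicates 5 to 8 (55.6% and 27.8%, against 35.8% and 29.6% of all genes; median -0.12), and 7 lower and 1 higher in MeWo (38.9% and 5.56%, against 8.51% and 4.59%; median -0.09). MANF, a secreted protein of the endoplasmic reticulum, fell by 1.23 ± 0.05 on the log2 scale in A101D, from 63.7 ± 1.14 to 27.2 ± 1.58 CPM (adjusted p 2.39e-24). CRELD2, SDF2L1 and PDIA4, which aid folding there, were lower by -0.79 ± 0.05, -0.61 ± 0.05 and -0.58 ± 0.04. The 5 higher genes in A101D were SEL1L (0.45 ± 0.04), HERPUD1 (0.40 ± 0.04), DNAJB9 (0.17 ± 0.05), HSPA5 (0.15 ± 0.04) and EDEM1 (0.10 ± 0.04). In MeWo, SDF2L1 (-0.20 ± 0.05, adjusted p 0.00558) and PDIA4 (-0.12 ± 0.04, adjusted p 0.0438) passed, and MANF and CRELD2 did not (-0.09 for each).

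**Figure D4:**
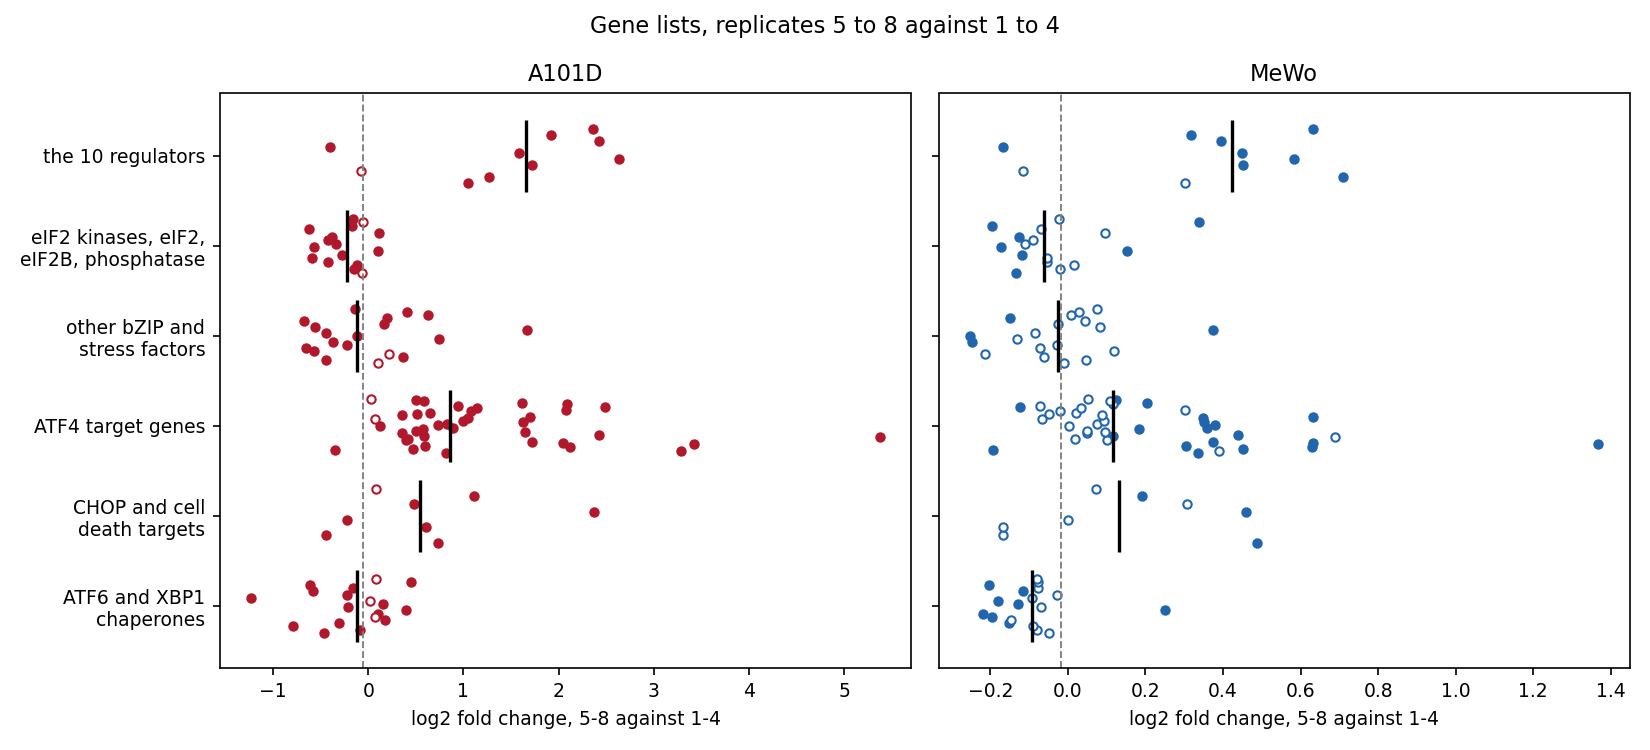
Log2 fold change of replicates 5 to 8 against 1 to 4 (horizontal axes, on different scales) for every tested gene of each list, in A101D (left, red) and MeWo (right, blue). Filled points passed the test, open points did not, black bars mark list medians and dashed lines the median of all genes; the 10 regulators (median 1.65 in A101D, 0.42 in MeWo) and the ATF4 targets (0.86 and 0.12) lie above the all-gene line, and the chaperones (-0.12 and -0.09) slightly below it.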

How the data were processed

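Total RNA was profiled in 16 libraries of A101D and MeWo, with a kit that marks strand (per the labels' protocols). Counts were made by the authors per gene over exons, per the file headers, and deposited without normalization, 1 table to a line, each cell joining an Ensembl identifier and its count. Both parts were separated before use. The submitters' processing notes name Trimmomatic 0.39-1, STAR 2.7.1a, featureCounts 2.0.0 and GRCh38. For the annotation release and the strand option, the sources used here give nothing.

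The members and gene lists were chosen with earlier results of these data known, as was the split into replicates 1 to 4 and 5 to 8. Positions and exon lengths are from GENCODE 29. Genes with 0.298 CPM (10 counts at the median depth) in at least 4 libraries and a total of 15 counts were tested with limma 3.58.1 in R 4.3.3 (voom weights, robust empirical Bayes, 4 sets in 1 model, 5 contrasts, two-sided, Benjamini-Hochberg over all 21569 genes). A quasi-likelihood count test and a further count model had been planned but were not run, since the unit check did not take the joined cells for counts. The fit was also run on simulated counts with far fewer changed genes than were called in A101D. That run cannot vouch for the scaling of these data.

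Named genes are the 10 members, up to 4 called genes per list with the largest absolute log2 fold change in A101D, plus ASNS and CHAC1, and the 5 genes with a mean of at least 10 CPM most like ATF4 and DDIT3. PPP1R15B, GCN1 and IMPACT are named outside this rule, for their roles beside members, after their values were seen, as are marker genes and genes that overlap a member. ERO1A, BCL2L11, SEL1L, HERPUD1, DNAJB9, HSPA5 and EDEM1 were also named after their values were seen. The genes that the rule picked from their lists all went the other way in A101D. Deviations of same-numbered libraries of the lines from their set means had correlations of -0.017 to 0.052. These cannot show whether such libraries were handled together, and the labels do not say, so the main fit has no pairing. Alternatives were limma on log2 CPM, other scalings and filters, a threshold of 0.01, fits within a line, the replicate block and leaving out each library.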

Additional observations from a re-analysis of the deposited data

Results flagged for a closer look

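Among 40 groups of 4 libraries (10 members in 4 sets), 4 held a library far from the other 3, where chance gives about 1 in 20. DDIT3 was low in A101D replicate 2 (14.05 CPM) and in MeWo replicate 4 (22.6 CPM), PPP1R15A was low in A101D replicate 2 (136 CPM), and ATF5 was high in MeWo replicate 3 (14.4 CPM). Leaving out these libraries ended no call of these genes in the comparison of replicates 5 to 8 with 1 to 4.

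The interaction test passed for 9 members and for 48.5% of all genes. The difference between replicates 5 to 8 and 1 to 4 was thus not the same in the lines for these members. On the log2 scale, MeWo minus A101D, it was -0.56 for ATF4, -1.13 for DDIT3, -0.74 for ATF3, -1.27 for CEBPB, -2.06 for CEBPG, -1.73 for TRIB3, -2.03 for NUPR1, -1.60 for PPP1R15A and 0.23 for EIF2AK4.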

How the results depend on the processing

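The number of members called in each comparison was within 1.5 times the reported one under every alternative run, and 1173 of 1200 single member values kept their direction and side of the threshold. Values that turned were near 0 or came with another scaling. ATF5 in A101D was 0.00283 with median-of-ratios factors and 0.0876 on total counts, and its difference between the lines ran from -0.0783 to 0.0215 without 1 library. ATF4 between the lines in replicates 1 to 4 was 0.0358 with median-of-ratios factors, 0.0367 on total counts, 0.497 with upper-quartile factors and -0.0172 to 0.0159 without 1 library. Upper-quartile factors also turned NUPR1 in replicates 1 to 4 (0.30) and DDIT3 (0.0835) and CEBPB (0.19) in replicates 5 to 8. Of the other results checked, list counts and set mean levels among them, 144 moved and 1297 stayed the same. A list count was taken to move when it changed by more than 1.5 times, and a set mean when it changed by its SD or more. The causes were not tested.

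Total counts moved the median of all genes in A101D by 0.16, and in the difference between the lines by -0.10. The share of called genes that were higher went from 45.2% to 59.5% on total counts in A101D. In MeWo it went from 35.0% to 66.3% on total counts, 18.9% with upper-quartile factors and 52.2% with the 8 MeWo libraries alone. In the difference between the lines it went from 57.0% to 45.8% on total counts, and between the lines from 45.3% to 66.8% and from 48.2% to 65.2% with upper-quartile factors. With the replicate number as a block, 9, 9 and 10 members were called in the interaction and the line comparisons, as without it, and 10559 genes in the interaction against 10453. Depth limits ATF3 in MeWo most.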
